A study of Mus musculus with 9 samples.

Results

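The genes described here are the Wnt ligands, receptors and antagonists of the mouse, with a few downstream genes that report on the pathway. They were found by their gene symbols and number 55 of the 54532 genes in the count table, of which 22046 are protein-coding. They comprise 19 Wnt ligands, 10 Frizzled receptors, 4 co-receptors (Lrp5, Lrp6, Ror1 and Ror2), 6 antagonists that bind Wnt proteins (Sfrp1, Sfrp2, Sfrp4, Sfrp5, Frzb and Wif1), 4 Dkk antagonists, 4 R-spondins, 3 Lgr receptors and 5 target or feedback genes (Axin2, Lef1, Tcf7, Nkd1 and Nkd2).

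Adipose-derived stem cells (ASCs) of C57BL/6 mice were compared by bulk mRNA sequencing, with 3 libraries for each source of fat and 9 in all. The cells came from perivascular (PVASC), subcutaneous (Sub-ASC) or abdominal (Ab-ASC) adipose tissue. Each group was grown in a serum medium with leukemia inhibitory factor and FGF and harvested between passages 3 and 6, and no group carried a genetic change or received a differentiation treatment. The sources used here do not give the age of the mice, how many mice stand behind a culture, or whether the 3 libraries of a group came from separate cultures. The p-values therefore measure the spread among these libraries, which may be technical.

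Wnt proteins are secreted, lipid-modified signals that bind Frizzled receptors. Together with Lrp5 or Lrp6 they stabilise β-catenin, which acts with Tcf and Lef factors on target genes such as Axin2, whereas Wnt5a-type ligands act largely without β-catenin, in part through Ror2. Sfrp proteins, Frzb and Wif1 bind the ligands themselves, Dkk proteins act on the co-receptors, and R-spondins act through Lgr receptors to keep Frizzled and Lrp proteins at the cell surface. In fat, β-catenin signaling is known for holding precursor cells back from becoming adipocytes.

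Library totals ranged from 20524173 to 29881036 reads. Levels are given as CPM, read counts set relative to the TMM-scaled library size. Where genes are compared with each other, FPKM is used, which divides by gene length and by the plain library total without TMM scaling. Library values always stand in the order of replicates 1, 2 and 3. All 9 markers of mesenchymal stem cells examined (Ly6a, Thy1, Eng, Nt5e, Cd44, Pdgfra, Pdgfrb, Itgb1 and Cd34) had a mean of at least 1 CPM in every group. Their levels differed widely, with Ly6a (Sca-1) at 2047 CPM in Sub-ASCs, 111 CPM in PVASCs and 21.8 CPM in Ab-ASCs. Thy1 and Eng were highest in PVASCs instead, with Thy1 at 882 CPM there, 332 CPM in Sub-ASCs and 231 CPM in Ab-ASCs. Against Sub-ASCs, 4 of the 9 were higher and 5 lower in PVASCs, and 3 higher and 6 lower in Ab-ASCs. All 9 passed the test described below in both comparisons, beside 70.4% and 75.3% of all genes tested. Markers of other cells were present too and are given beside the results they move with. In bulk cultures, fewer cells of a type and less RNA per cell cannot be told apart.

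At a mean of at least 1 CPM, 34 of the 55 Wnt pathway genes were expressed in PVASCs, 32 were in Ab-ASCs and 34 were in Sub-ASCs (61.8%, 58.2% and 61.8%, beside 55.5%, 54.4% and 56.0% of all protein-coding genes). Enough reads for testing were found for 42 genes. The other 13 had at most 12 reads in any library, and 9 of them were Wnt ligands (Wnt1, Wnt3, Wnt3a, Wnt6, Wnt8a, Wnt8b, Wnt9b, Wnt10a and Wnt10b), together with Sfrp5, Dkk1, Dkk4 and Rspo4. Dkk4 had no read, for which a library's 3-read limit is 0.0916 to 0.161 CPM. Reads of Dkk1 were confined to Sub-ASC libraries, with 3, 1 and 2. Wnt10a, a ligand of skin and tooth development, had 9, 11 and 12 reads in PVASC libraries, 5, 0 and 0 in Sub-ASC libraries and 1, 1 and 0 in Ab-ASC libraries.

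Depots were compared pair by pair with the quasi-likelihood test of edgeR, adjusted by Benjamini-Hochberg over 16526 genes, and a difference was called at an adjusted p under 0.05. Between PVASCs and Sub-ASCs, 34 of the 42 tested genes differed, 19 higher and 15 lower in PVASCs (81.0%, beside 70.4% of all genes tested, of which 34.7% were higher and 35.7% lower). Between PVASCs and Ab-ASCs, 29 differed, 15 higher and 14 lower in PVASCs (69.0%, beside 56.9%, with 24.7% higher and 32.1% lower). Between Ab-ASCs and Sub-ASCs, 40 differed, 23 higher and 17 lower in Ab-ASCs (95.2%, beside 75.3%, with 37.0% higher and 38.3% lower). Most genes of these cultures differed, and the CPM ranges of the groups did not overlap for 77.3%, 63.9% and 76.5% of all genes tested in these comparisons, so that separate ranges were common. Passing the test with a change of 1 or more on the log2 scale, in either direction, was met by 21 genes between PVASCs and Sub-ASCs (50%, beside 32.2% of all genes tested), by 13 between PVASCs and Ab-ASCs (31.0%, beside 15.4%) and by 32 between Ab-ASCs and Sub-ASCs (76.2%, beside 37.8%). The median absolute log2 fold change of the tested Wnt pathway genes was 1.45, 0.60 and 1.64 in these comparisons, and 0.59, 0.38 and 0.75 over all genes tested. With genes at 0 reads in a group set to their 3-read bound, and 2 genes at or under 3 reads per library left out, the first of these medians was 1.38 and the others did not move.

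**Figure D1:**
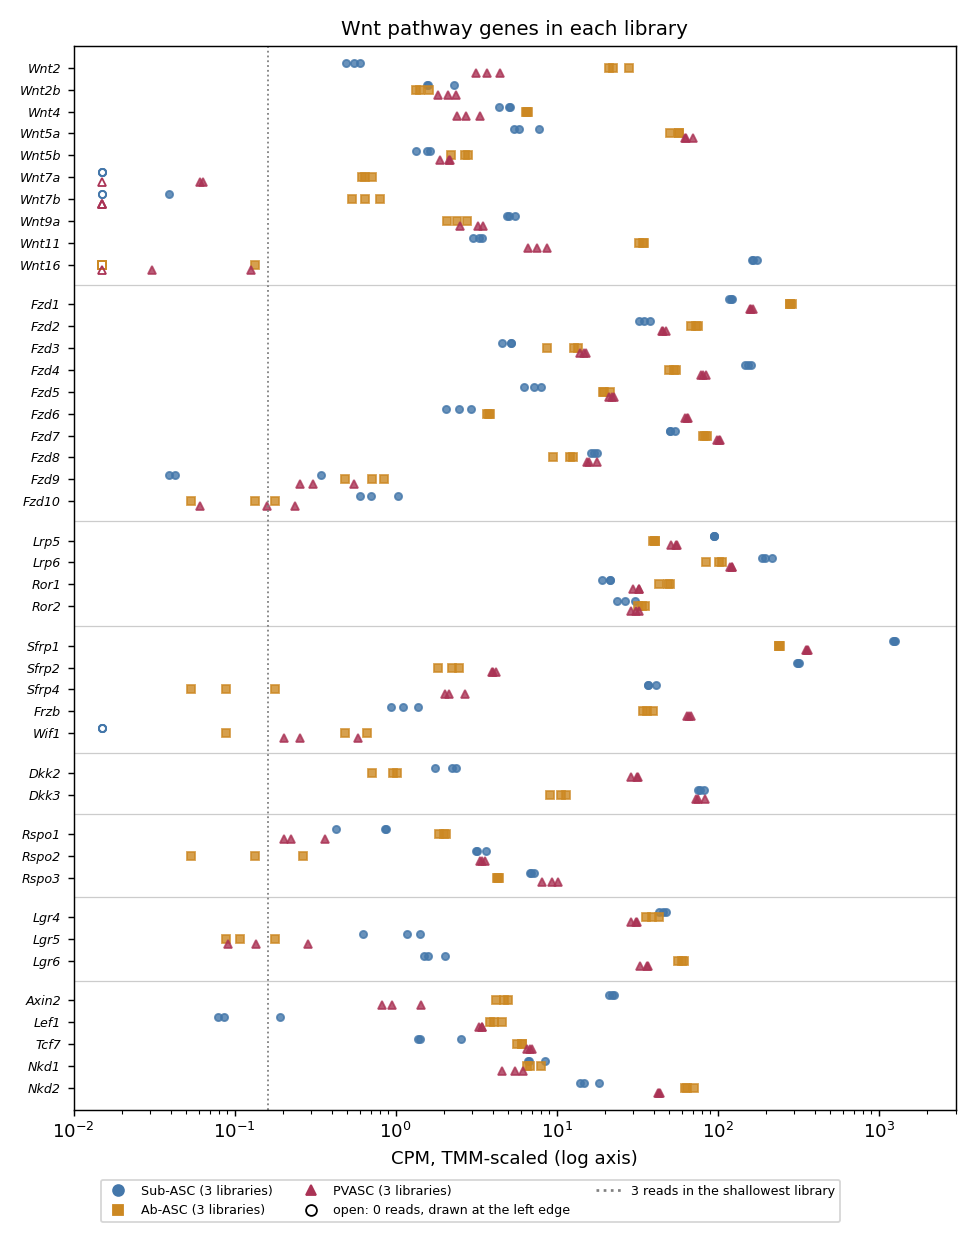
CPM after TMM scaling (log axis) of the 42 tested Wnt pathway genes in each of the 9 libraries, grouped by role, with circles for Sub-ASC, squares for Ab-ASC, triangles for PVASC and open symbols for 0 reads. Wnt16, Sfrp2 and Axin2 lie highest in the 3 Sub-ASC libraries, Wnt2, Wnt11 and Lgr6 in the 3 Ab-ASC libraries, and Fzd6, Dkk2 and Frzb in the 3 PVASC libraries.

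Against both other depots, 6 genes were higher in PVASCs (Wnt5a, Fzd6, Fzd7, Frzb, Dkk2 and Rspo3), 14.3% of those tested beside 10.2% of all genes. In Ab-ASCs 11 were higher than in both (Wnt2, Wnt4, Wnt7a, Wnt7b, Wnt11, Fzd1, Fzd2, Ror1, Rspo1, Lgr6 and Nkd2), 26.2% beside 20.9%. In Sub-ASCs 12 were higher than in both (Wnt9a, Wnt16, Fzd4, Fzd10, Lrp5, Lrp6, Sfrp1, Sfrp2, Sfrp4, Lgr4, Lgr5 and Axin2), 28.6% beside 28.7%. With a change of 1 or more on the log2 scale against both, 2 genes of PVASCs, 5 of Ab-ASCs and 7 of Sub-ASCs were left, beside 4.08%, 2.47% and 13.4% of all genes tested.

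Among the ligands, a different Wnt gene led in each depot. Wnt16 made up 86.8% to 87.7% of the summed ligand FPKM of a Sub-ASC library. Wnt5a made up 53.0% to 58.2% of it in PVASCs. In Ab-ASCs the sum was divided among Wnt2 (32.9% to 38.7%), Wnt11 (26.1% to 28.6%) and Wnt5a (22.2% to 26.1%). The summed ligand level was 42.1 to 45.1 FPKM in Sub-ASCs, 27.0 to 29.2 FPKM in Ab-ASCs and 15.9 to 16.9 FPKM in PVASCs.

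**Figure D2:**
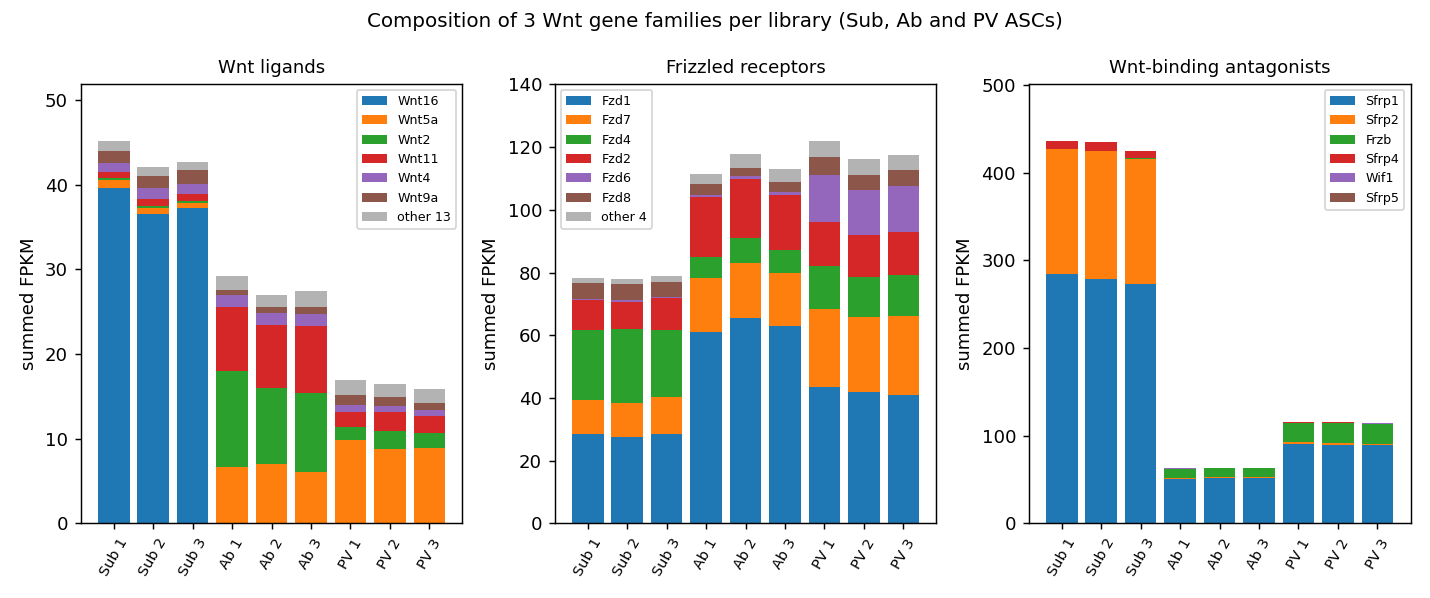
Summed FPKM of the Wnt ligands, Frizzled receptors and Wnt-binding antagonists in each library (1 stacked bar per library, axes from 0), split by gene. Wnt16 fills most of the ligand bar in Sub-ASCs at 36.5 to 39.6 FPKM, while the Fzd6 segment stands out in PVASCs and the Sfrp2 segment in Sub-ASCs.

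Wnt16 (ENSMUSG00000029671), a ligand known for its role in cortical bone, lies on the plus strand of chromosome 6 at 22288227 to 22298522 in GRCm38. Its level was 176, 162 and 166 CPM in Sub-ASC libraries, 0, 0 and 0.134 CPM in Ab-ASC libraries and 0.0305, 0 and 0.127 CPM in PVASC libraries. All Sub-ASC libraries thus stood far above the others, where the gene was at or near the limit of detection. The 3 Sub-ASC libraries held 12594 reads of Wnt16 in all, against 5 in PVASCs and 3 in Ab-ASCs. The scaled ratio was 3147 against PVASCs (exact 95% interval of counting error 1348 to 9694) and 3558 against Ab-ASCs (1217 to 17257), with adjusted p = 4.79e-13 and 7.86e-13. Wnt9a, a ligand of joint formation, was also higher in Sub-ASCs but by far less. Its values were 4.93, 5.03 and 5.52 CPM in Sub-ASCs, 3.51, 3.25 and 2.51 CPM in PVASCs and 2.09, 2.40 and 2.76 CPM in Ab-ASCs. The Sub-ASC range did not overlap either of the others, and the log2 fold change was -0.74 ± 0.15 (SE) in PVASCs and -1.09 ± 0.16 in Ab-ASCs (adjusted p = 0.000717 and 6.04e-05). The PVASC and Ab-ASC ranges overlapped, and the difference missed the threshold (adjusted p = 0.0995, and 0.0328 without PVASC replicate 3).

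Wnt5a (ENSMUSG00000021994; chromosome 14, 28504750 to 28527448, plus strand) had 70.3, 62.9 and 63.2 CPM in PVASC libraries, 57.1, 57.8 and 50.6 CPM in Ab-ASC libraries and 7.81, 5.85 and 5.45 CPM in Sub-ASC libraries. Sub-ASCs were low throughout, and the other 2 groups lay close together without overlap. Against Sub-ASCs, Wnt5a was higher in PVASCs by a log2 fold change of 3.37 ± 0.12 and in Ab-ASCs by 3.12 ± 0.12 (adjusted p = 5.3e-11 and 1.17e-10). Its difference between PVASCs and Ab-ASCs was small, with a log2 fold change of 0.25 ± 0.10 and an adjusted p of 0.0457. This call was lost without Sub-ASC replicate 2, Ab-ASC replicate 3 or any 1 of the PVASC replicates (adjusted p = 0.0585 to 0.183).

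Wnt2 (ENSMUSG00000010797; chromosome 6, 17988940 to 18030585, minus strand), known from lung and heart development, had 28.1, 21.01 and 22.3 CPM in Ab-ASCs, 3.18, 4.47 and 3.69 CPM in PVASCs and 0.601, 0.550 and 0.495 CPM in Sub-ASCs. The groups formed separate steps with no overlap. Ab-ASCs exceeded Sub-ASCs by a log2 fold change of 5.43 ± 0.20 (adjusted p = 9.16e-11), and PVASCs lay 2.66 below Ab-ASCs, a log2 fold change of -2.66 ± 0.14 (adjusted p = 1.59e-08). Wnt11 (ENSMUSG00000015957; chromosome 7, 98835112 to 98855195, plus strand), a ligand that guides cell movement in the embryo, had the same order. It had 34.7, 32.2 and 34.4 CPM in Ab-ASCs, 6.63, 8.74 and 7.53 CPM in PVASCs and 3.05, 3.46 and 3.31 CPM in Sub-ASCs, again without overlap. The log2 fold change of Wnt11 was 3.36 ± 0.11 in Ab-ASCs against Sub-ASCs and -2.15 ± 0.10 in PVASCs against Ab-ASCs (adjusted p = 4.05e-11 and 4.41e-09). Wnt4, which acts in the kidney and the female reproductive tract, had 6.65, 6.53 and 6.46 CPM in Ab-ASCs, 4.38, 5.14 and 5.07 CPM in Sub-ASCs and 3.36, 2.40 and 2.73 CPM in PVASCs. Here PVASCs rather than Sub-ASCs were lowest, and their log2 fold change against Ab-ASCs was -1.20 ± 0.14 (adjusted p = 1.49e-05).

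Wnt7a and Wnt7b, a pair of closely related ligands, were found at low levels in Ab-ASCs. Wnt7a had 12, 14 and 16 reads in Ab-ASC libraries, 2, 0 and 2 in PVASC libraries and none in Sub-ASC libraries. Wnt7b had 12, 12 and 18 reads in Ab-ASC libraries, none in PVASC libraries and 0, 1 and 0 in Sub-ASC libraries. Set against 3 reads in each library without any, Wnt7a was at least 5.48-fold higher in Ab-ASCs than in Sub-ASCs, and Wnt7b at least 6.86-fold higher than in PVASCs (adjusted p = 4.41e-05 and 6.18e-05). The mean level of both was 0.660 CPM in Ab-ASCs. Markers of mesothelial cells, the lining of the abdominal cavity, were also highest in sum in Ab-ASCs, in the order of Wnt2 and Wnt11 but not of Wnt4, which was lowest in PVASCs. Their 13 genes summed to 133 to 143 CPM in Ab-ASCs, 52.7 to 54.0 CPM in PVASCs and 3.54 to 4.04 CPM in Sub-ASCs, where Lrrn4, Muc16 and Upk1b had no read. Of these 13 genes, 10 had a mean of at least 1 CPM in Ab-ASCs, 8 in PVASCs and 1 in Sub-ASCs. Of 12 tested, 10 were lower and 2 (Krt19 and Gpm6a) higher in PVASCs than in Ab-ASCs, beside 32.1% and 24.7% of all genes tested. The part of mesothelial cells in the ligand differences was not tested.

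The remaining tested ligands, Wnt2b and Wnt5b, ranged from 1.34 to 2.81 CPM over all 9 libraries. For Wnt2b no difference passed the test. Its PVASC libraries lay above the Ab-ASC ones at an adjusted p of 0.0506, which passed under 5 alternatives (0.0244 to 0.0452), among them without Sub-ASC replicate 2 or PVASC replicate 2. Wnt5b was higher in Ab-ASCs than in Sub-ASCs by a log2 fold change of 0.77 ± 0.18 (adjusted p = 0.00192). Its difference between PVASCs and Sub-ASCs was called at an adjusted p of 0.0369 but not without Sub-ASC replicate 2 or 3 or PVASC replicate 1 or 2 (0.0638 to 0.115), nor with the replicate block (0.0558), DESeq2 (0.0635) or no filter on low counts (0.0897). Wnt5b overlaps Fbxl14 on the opposite strand, which held 7742 reads over all libraries against 469 of Wnt5b, and the strand setting of the counting was not given.

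The sequences before the start sites of Wnt16 and Wnt2, 2 ligands of chromosome 6 that lie 4.26 Mb apart and are each highest in a different depot, are shown as the 250 bases upstream of the start in RefSeq (GRCm38.p6), 5′ to 3′ on the gene's own strand. The window of Wnt16 is chr6:22287977-22288226 on the plus strand, and that of Wnt2 is chr6:18030446-18030695 on the minus strand. The RefSeq start of Wnt2 lies 140 bases inside the gene as listed with the counts, so that 140 bases of its window belong to the listed gene. Capitals mark GC boxes (GGGCGG or its reverse complement CCGCCC), the only motif of those searched that either holds.
Wnt16: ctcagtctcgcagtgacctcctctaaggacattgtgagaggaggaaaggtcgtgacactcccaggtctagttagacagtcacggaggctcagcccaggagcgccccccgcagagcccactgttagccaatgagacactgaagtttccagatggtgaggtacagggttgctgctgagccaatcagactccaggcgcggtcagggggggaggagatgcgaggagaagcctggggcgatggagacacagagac
Wnt2: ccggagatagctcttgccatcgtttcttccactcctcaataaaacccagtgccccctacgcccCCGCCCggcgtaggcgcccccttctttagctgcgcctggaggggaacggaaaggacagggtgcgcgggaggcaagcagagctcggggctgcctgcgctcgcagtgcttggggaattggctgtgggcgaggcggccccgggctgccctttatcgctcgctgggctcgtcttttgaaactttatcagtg
The search, on both strands, was for CTTTGAA and CTTTGAT (sites of Tcf and Lef factors), GGGCGG and TATAAA. These stand in 4.46%, 3.21%, 32.7% and 12.4% of 32851 RefSeq windows of this length. A window was available for 38 of the 55 genes, of which 28 held GGGCGG, 5 held TATAAA, 1 held CTTTGAA (Dkk1) and 1 held CTTTGAT (Wnt11). The median GC content was 67.4% in these 38 windows and 52.4% in all windows. Wnt16 held none of the 4 motifs, which says only that these letters are not in this window.

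The Frizzled receptors were led by Fzd1 in every depot, and the shares of Fzd1, Fzd4 and Fzd6 differed most between depots. Their summed level was 116 to 122 FPKM in PVASCs, 112 to 118 FPKM in Ab-ASCs and 77.9 to 79.0 FPKM in Sub-ASCs. These sums are not TMM-scaled, and the TMM factors were 1.09 to 1.10 in PVASC libraries and 0.908 to 0.953 in Ab-ASC libraries. The order of PVASCs and Ab-ASCs in this sum therefore depends on the scaling. Fzd1 had the largest share in every library, 35.0% to 36.2% in PVASCs, 54.7% to 55.7% in Ab-ASCs and 35.3% to 36.4% in Sub-ASCs. The second place was held by Fzd7 in PVASCs (20.2% to 21.2%), Fzd2 in Ab-ASCs (15.6% to 16.9%) and Fzd4 in Sub-ASCs (27.2% to 30.2%).

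Fzd6 (ENSMUSG00000022297; chromosome 15, 39006034 to 39038188, plus strand), a receptor known from planar cell polarity and the orientation of hair, was the Frizzled gene with the largest fold change. Its level was 65.0, 62.6 and 64.7 CPM in PVASCs, 3.81, 3.86 and 3.70 CPM in Ab-ASCs and 2.06, 2.95 and 2.48 CPM in Sub-ASCs. The PVASC libraries stood apart from all others, with a log2 fold change of 4.68 ± 0.10 against Sub-ASCs and 4.08 ± 0.09 against Ab-ASCs (adjusted p = 5.7e-13 and 1.55e-11). Fzd7, one of the most widely expressed Frizzled genes, was higher in PVASCs too, with 99.4 to 103 CPM against 80.9 to 86.4 CPM in Ab-ASCs and 50.4 to 54.4 CPM in Sub-ASCs. Its log2 fold change was 0.97 ± 0.06 against Sub-ASCs and 0.28 ± 0.05 against Ab-ASCs (adjusted p = 7.13e-09 and 0.000865).

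Fzd1, its close relative, had 282, 289 and 280.5 CPM in Ab-ASCs, 167, 162 and 158 CPM in PVASCs and 122, 118 and 122 CPM in Sub-ASCs. Fzd2, of the same subfamily, had 76.0, 73.4 and 68.5 CPM in Ab-ASCs, 47.6, 45.3 and 45.5 CPM in PVASCs and 34.9, 32.4 and 37.8 CPM in Sub-ASCs. Both genes followed the order Ab-ASC, PVASC, Sub-ASC without overlap. In Ab-ASCs against Sub-ASCs the log2 fold change was 1.24 ± 0.05 for Fzd1 and 1.05 ± 0.07 for Fzd2 (adjusted p = 1.67e-10 and 2.83e-08). Fzd4, a receptor of the retinal vasculature that also binds the ligand Norrin, had the opposite order. Its level was 154, 161 and 148 CPM in Sub-ASCs, 84.5, 78.7 and 81.0 CPM in PVASCs and 49.95, 54.9 and 53.7 CPM in Ab-ASCs. Compared with Sub-ASCs, its log2 fold change was -0.92 ± 0.06 in PVASCs and -1.55 ± 0.06 in Ab-ASCs (adjusted p = 1.92e-08 and 1.63e-10).

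Fzd3, known for axon guidance, and Fzd5, known from the eye and the intestine, were lower in Sub-ASCs than in both other depots. Fzd5 had 6.26, 7.23 and 8.001 CPM in Sub-ASCs, 19.8, 21.6 and 19.5 CPM in Ab-ASCs and 22.6, 22.01 and 21.2 CPM in PVASCs. The Ab-ASC and PVASC ranges of Fzd5 overlapped, and their log2 fold change was 0.11 ± 0.09 (adjusted p = 0.293). For Fzd3 the levels were 5.19, 5.18 and 4.57 CPM in Sub-ASCs, 8.75, 13.6 and 12.9 CPM in Ab-ASCs and 14.0, 14.9 and 15.2 CPM in PVASCs. Every PVASC library of Fzd3 lay above every Ab-ASC library, of which replicate 1 was the lowest. The difference of Fzd3 between PVASCs and Ab-ASCs missed the threshold (adjusted p = 0.0642), and passed it without Ab-ASC replicate 2 (0.0196) or with another filter on low counts (0.0206 and 0.0458). Against Sub-ASCs, Fzd3 was higher by a log2 fold change of 1.56 ± 0.15 in PVASCs and 1.25 ± 0.15 in Ab-ASCs, and Fzd5 by 1.61 ± 0.09 and 1.499 ± 0.10, with every adjusted p at most 9.3e-06. Fzd8 ranged from 9.55 to 17.9 CPM over all libraries and was lower in Ab-ASCs than in Sub-ASCs (log2 fold change -0.58 ± 0.11, adjusted p = 0.000369). The 2 remaining receptors were rare, with Fzd9 at 0.0393 to 0.847 CPM and Fzd10 at 0.0537 to 1.03 CPM. Fzd10 was higher in Sub-ASCs, with 14, 18 and 27 reads against 1 to 7 in every other library. Fzd9 was higher in Ab-ASCs than in Sub-ASCs, with a log2 fold change of 2.20 ± 0.62 (adjusted p = 0.00629). For Fzd9 the difference between PVASCs and Sub-ASCs missed the threshold (adjusted p = 0.088). It passed with no filter on low counts (0.0496) or without Sub-ASC replicate 3 (0.00455), which held 9 of the 11 Sub-ASC reads.

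The co-receptors of the β-catenin branch were highest in Sub-ASCs. Lrp5, known as a determinant of bone mass, had 95.1, 95.3 and 94.4 CPM in Sub-ASCs, 55.7, 54.8 and 51.1 CPM in PVASCs and 40.9, 39.8 and 40.7 CPM in Ab-ASCs. Lrp6, its paralog, had 196, 218 and 188 CPM in Sub-ASCs, 119, 123 and 123 CPM in PVASCs and 84.2, 106 and 102 CPM in Ab-ASCs. Neither gene overlapped between any groups. Against Sub-ASCs the log2 fold changes of Lrp5 were -0.82 ± 0.05 in PVASCs and -1.23 ± 0.06 in Ab-ASCs, and those of Lrp6 were -0.72 ± 0.08 and -1.04 ± 0.08, with every adjusted p at most 6.74e-06. Ror1, a co-receptor of Wnt5a-type signals, ran the other way. Its level was 43.4, 50.6 and 49.2 CPM in Ab-ASCs, 32.7, 32.5 and 29.9 CPM in PVASCs and 19.2, 21.6 and 21.4 CPM in Sub-ASCs, with a log2 fold change of 1.20 ± 0.08 in Ab-ASCs and 0.61 ± 0.08 in PVASCs against Sub-ASCs (adjusted p = 2.76e-08 and 1.79e-05). Ror2 varied little, from 23.7 to 35.6 CPM over all libraries, and was higher in Ab-ASCs than in Sub-ASCs by a log2 fold change of 0.32 ± 0.09 (adjusted p = 0.00787). Between PVASCs and Sub-ASCs it missed the threshold (adjusted p = 0.0966), and passed it without Sub-ASC replicate 3 (0.0158) or Ab-ASC replicate 1 (0.0392) and with the fit of 2 groups (0.0418).

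Of the 5 tested antagonists that bind Wnt proteins, 2 were higher and 3 lower in both PVASCs and Ab-ASCs when compared with Sub-ASCs. When compared with Ab-ASCs, 4 were higher and none lower in PVASCs. The called shares were thus 100%, 100% and 80%, beside 70.4%, 75.3% and 56.9% of all genes tested. Their summed level was 425 to 436 FPKM in Sub-ASCs, 114 to 116 FPKM in PVASCs and 62.8 to 63.7 FPKM in Ab-ASCs. Sfrp1 led in every library, with 64.2% to 65.3% of the sum in Sub-ASCs, 77.7% to 78.7% in PVASCs and 80.2% to 82.5% in Ab-ASCs. Sfrp2 came second in Sub-ASCs at 32.6% to 33.6%, whereas Frzb came second in PVASCs at 18.8% to 19.8% and in Ab-ASCs at 16.1% to 17.8%.

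Sfrp1 (ENSMUSG00000031548; chromosome 8, 23411502 to 23449632, plus strand) had 1271, 1243 and 1222 CPM in Sub-ASCs, 363, 360.1 and 355 CPM in PVASCs and 242, 239 and 240.5 CPM in Ab-ASCs. The libraries of a group differed by a few percent and the groups lay far apart, with a log2 fold change from Sub-ASCs of -1.79 ± 0.04 in PVASCs and -2.37 ± 0.04 in Ab-ASCs (adjusted p = 1.76e-12 and 2.1e-13). Sfrp2 (ENSMUSG00000027996; chromosome 3, 83766321 to 83774316, plus strand), known from fibroblasts and wound repair, was close to a Sub-ASC gene. It had 312, 319 and 315 CPM in Sub-ASCs, 3.97, 4.03 and 4.19 CPM in PVASCs and 2.47, 1.82 and 2.23 CPM in Ab-ASCs. The level was 77.5-fold lower in PVASCs and 146-fold lower in Ab-ASCs than in Sub-ASCs (log2 fold change -6.28 ± 0.08 and -7.19 ± 0.09, adjusted p = 1.91e-14 and 1.08e-14). Sfrp4 (ENSMUSG00000021319; chromosome 13, 19623104 to 19632994, plus strand), whose loss affects bone in humans and mice, had 37.1, 41.6 and 36.9 CPM in Sub-ASCs, 2.14, 2.71 and 2.03 CPM in PVASCs and 0.0537, 0.0888 and 0.178 CPM in Ab-ASCs. It also separated PVASCs from Ab-ASCs, where 7 reads were found in all, by a scaled ratio of 20.7 (exact 95% interval of counting error 9.89 to 52.2) and an adjusted p of 2.94e-07.

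Frzb (ENSMUSG00000027004; chromosome 2, 80411970 to 80447625, minus strand), an Sfrp relative first known from cartilage, was lowest in Sub-ASCs, where these 3 genes were highest. Its level was 64.3, 68.0 and 66.2 CPM in PVASCs, 39.9, 34.4 and 36.5 CPM in Ab-ASCs and 1.37, 0.942 and 1.10 CPM in Sub-ASCs. No groups overlapped, and the log2 fold change against Sub-ASCs was 5.86 ± 0.11 in PVASCs and 5.02 ± 0.11 in Ab-ASCs (adjusted p = 2.47e-13 and 1.15e-12). PVASCs exceeded Ab-ASCs by 0.84 ± 0.07 on the log2 scale (adjusted p = 1.54e-06). Wif1, an inhibitor of another protein family, had no read in Sub-ASCs, 9, 2 and 15 reads in Ab-ASCs and 19, 6 and 8 reads in PVASCs. Against 3 reads in each Sub-ASC library it was at least 2.88-fold higher in PVASCs (adjusted p = 0.00412).

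Of the Dkk antagonists, Dkk2 and Dkk3 could be tested and differed in pattern. Dkk2 (ENSMUSG00000028031; chromosome 3, 132085292 to 132180304, plus strand), which acts on Lrp5 and Lrp6, had 31.7, 31.9 and 29.1 CPM in PVASCs, 2.23, 1.77 and 2.36 CPM in Sub-ASCs and 0.966, 0.711 and 1.02 CPM in Ab-ASCs. It was high in PVASC libraries alone, with a log2 fold change of 3.86 ± 0.12 against Sub-ASCs and 5.10 ± 0.14 against Ab-ASCs (adjusted p = 1.64e-11 and 5.56e-11). Dkk3 (ENSMUSG00000030772; chromosome 7, 112116017 to 112159057, minus strand), a divergent member of the family, had 83.0, 75.3 and 73.0 CPM in PVASCs, 75.7, 77.7 and 81.9 CPM in Sub-ASCs and 9.12, 10.7 and 11.5 CPM in Ab-ASCs. The PVASC and Sub-ASC ranges of Dkk3 overlapped, with a log2 fold change of -0.02 ± 0.08 (adjusted p = 0.781). Ab-ASCs were far lower, by a log2 fold change of -2.91 ± 0.09 against Sub-ASCs (adjusted p = 1.63e-11). The sum of the Dkk family was 32.4 to 36.4 FPKM in PVASCs, 22.7 to 24.5 FPKM in Sub-ASCs and 2.70 to 3.48 FPKM in Ab-ASCs.

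Endothelial markers were also highest in sum in PVASCs, as were Fzd6 and Dkk2. The 8 genes of this list summed to 799 to 803 CPM in PVASCs, 199 to 210.5 CPM in Sub-ASCs and 70.4 to 71.9 CPM in Ab-ASCs, and 6 of the 8 were higher and 2 (Cldn5 and Tek) lower in PVASCs against Sub-ASCs, while 7 were higher against Ab-ASCs. In Ab-ASCs 7 of the 8 were lower than in Sub-ASCs, whereas Fzd6 was higher there by a log2 fold change of 0.60 ± 0.13 (adjusted p = 0.000959) and Dkk2 was lower, with a log2 fold change of -1.24 ± 0.19 (adjusted p = 8.35e-05). None was at 0 in any group, and Cdh5, Pecam1 and Emcn reached means of 209, 179 and 279 CPM in PVASCs. The 8 markers of smooth muscle and pericytes summed highest in Ab-ASCs (4419 to 5485 CPM, against 2908 to 3062 CPM in PVASCs), although 4 of them, Rgs5, Mcam, Cspg4 and Notch3, were higher in PVASCs than in Ab-ASCs and Sub-ASCs. The part of these cells in the Fzd6 and Dkk2 levels was not tested.

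**Figure D3:**
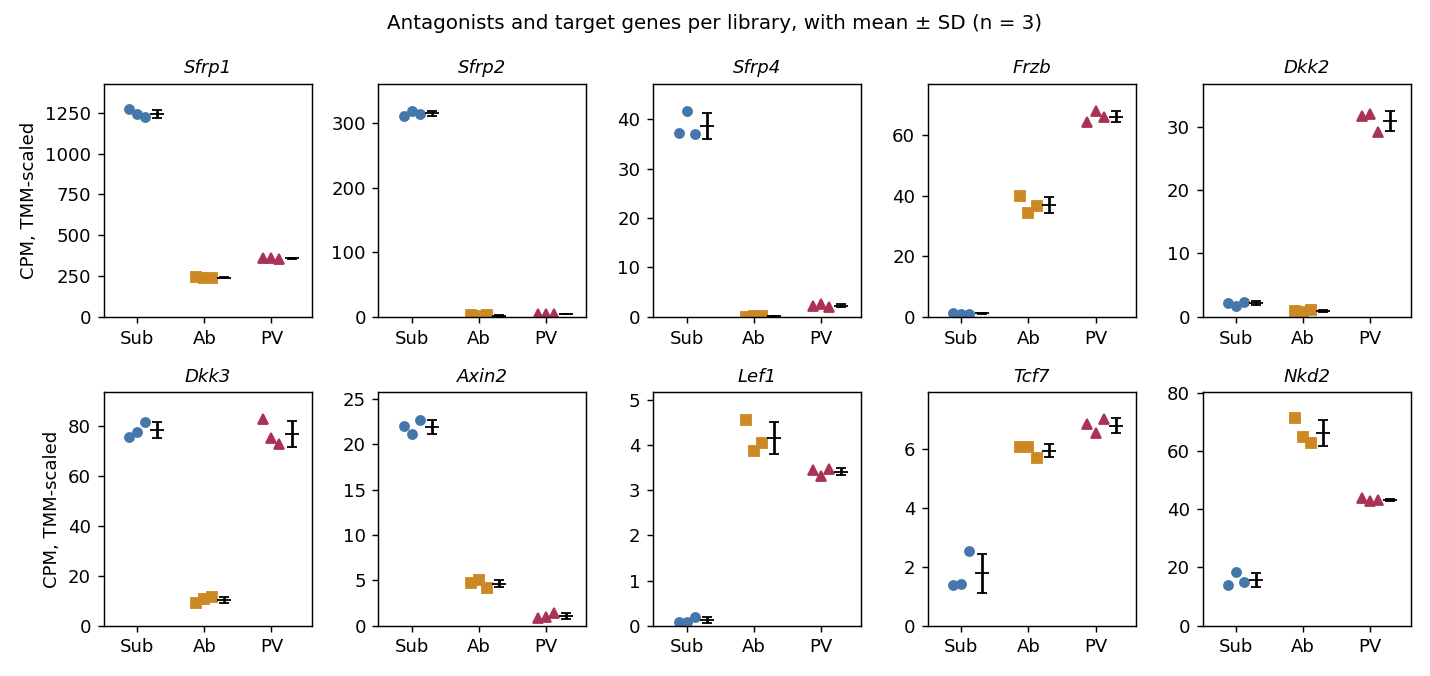
CPM after TMM scaling of 6 antagonists (Sfrp1, Sfrp2, Sfrp4, Frzb, Dkk2 and Dkk3) and 4 target or feedback genes (Axin2, Lef1, Tcf7 and Nkd2), with 1 symbol per library, linear axes from 0 and the mean ± SD of each group. Sfrp1, Sfrp2, Sfrp4 and Axin2 peak in Sub-ASCs, with Axin2 at 21.1 to 22.7 CPM, while Lef1 is at most 0.190 CPM there.

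The R-spondins, secreted proteins that raise the response to Wnt, were low in all depots, with sums of 3.76 to 4.58 FPKM in PVASCs, 3.04 to 3.35 FPKM in Sub-ASCs and 2.23 to 2.39 FPKM in Ab-ASCs. Rspo3, known from blood vessel development, had the largest share in every library. It had 10.1, 9.38 and 8.07 CPM in PVASCs, 6.91, 7.19 and 6.86 CPM in Sub-ASCs and 4.40, 4.35 and 4.23 CPM in Ab-ASCs. These ranges did not overlap, and PVASCs were higher by a log2 fold change of 0.40 ± 0.10 against Sub-ASCs and 1.09 ± 0.11 against Ab-ASCs (adjusted p = 0.00416 and 6.27e-06). Rspo2, which acts in limb and lung development, had 3.57, 3.35 and 3.46 CPM in PVASCs, 3.22, 3.14 and 3.62 CPM in Sub-ASCs and 0.0537, 0.133 and 0.267 CPM in Ab-ASCs. PVASC and Sub-ASC libraries overlapped for Rspo2 (log2 fold change 0.06 ± 0.16, adjusted p = 0.759), whereas the 10 reads of the Ab-ASC libraries were 22.05-fold below PVASCs (exact 95% interval of counting error 11.8 to 46.4, adjusted p = 1e-07). Rspo1, known from ovary development, was highest where Rspo2 was lowest. Its level was 1.99, 2.04 and 1.87 CPM in Ab-ASCs, 0.429, 0.864 and 0.876 CPM in Sub-ASCs and 0.366, 0.203 and 0.222 CPM in PVASCs, with a log2 fold change of 1.42 ± 0.28 in Ab-ASCs against Sub-ASCs (adjusted p = 0.000616).

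The Lgr receptors of the R-spondins changed in composition. Lgr4, the broadly expressed member, made up 94.7% to 96.7% of the Lgr FPKM in Sub-ASCs, 49.8% to 50.4% in PVASCs and 40.4% to 45.7% in Ab-ASCs, and Lgr6 made up 2.58% to 3.60%, 49.3% to 50.1% and 54.2% to 59.6%. Lgr6 (ENSMUSG00000042793; chromosome 1, 134983301 to 135105276, minus strand), a marker of stem cells in the skin, had 61.6, 59.9 and 56.4 CPM in Ab-ASCs, 36.6, 36.8 and 33.1 CPM in PVASCs and 2.02, 1.49 and 1.60 CPM in Sub-ASCs. The groups were widely separated, with a log2 fold change of 5.12 ± 0.10 in Ab-ASCs and 4.38 ± 0.11 in PVASCs against Sub-ASCs (adjusted p = 4.53e-13 and 1.99e-12). Lgr5, the marker of intestinal stem cells, was rare. It had 1.42, 0.628 and 1.18 CPM in Sub-ASCs, 0.107, 0.0888 and 0.178 CPM in Ab-ASCs and 0.0916, 0.135 and 0.286 CPM in PVASCs, and was lower than in Sub-ASCs by a log2 fold change of -3.04 ± 0.52 in Ab-ASCs and -2.61 ± 0.45 in PVASCs (adjusted p = 0.000181 and 0.000197). Lgr4 ranged from 29.1 to 47.9 CPM and was lower in PVASCs than in Sub-ASCs (log2 fold change -0.57 ± 0.08, adjusted p = 2.42e-05). Its difference between Ab-ASCs and Sub-ASCs, at an adjusted p of 0.0262, was lost without Sub-ASC replicate 1 or 2 or Ab-ASC replicate 1 or 3 (0.0573 to 0.11) and with the fit of 2 groups (0.0537).

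Of the 5 target and feedback genes, 3 were higher and 2 lower in PVASCs than in Sub-ASCs, and 3 higher and 1 lower in Ab-ASCs than in Sub-ASCs. Between PVASCs and Ab-ASCs, 3 were lower and none higher in PVASCs. These are 100%, 80% and 60% called, beside 70.4%, 75.3% and 56.9% of all genes tested. Axin2 (ENSMUSG00000000142; chromosome 11, 108920349 to 108950783, plus strand), a scaffold of the complex that degrades β-catenin and a common readout of that branch, had 22.05, 21.1 and 22.7 CPM in Sub-ASCs, 4.72, 5.02 and 4.19 CPM in Ab-ASCs and 0.825, 0.948 and 1.43 CPM in PVASCs. The 3 groups were clearly separated, with PVASCs lowest. The log2 fold change from Sub-ASCs was -4.36 ± 0.15 in PVASCs and -2.24 ± 0.13 in Ab-ASCs, and it was -2.12 ± 0.18 between PVASCs and Ab-ASCs (adjusted p = 4.79e-11, 5.9e-09 and 9.08e-07). Lef1 (ENSMUSG00000027985; chromosome 3, 131110471 to 131224356, plus strand), a partner of β-catenin on DNA that is also a target of the pathway, went the other way. Its level was 4.56, 3.86 and 4.05 CPM in Ab-ASCs, 3.45, 3.32 and 3.46 CPM in PVASCs and 0.0858, 0.0785 and 0.190 CPM in Sub-ASCs. Lef1 was nearly absent from Sub-ASCs, with 9 reads in all, and stood 28.5-fold higher in PVASCs (exact 95% interval of counting error 14.8 to 62.8) and 34.5-fold higher in Ab-ASCs (17.9 to 76.2), with adjusted p = 5.06e-09 and 2.71e-09.

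Tcf7, a second such factor known from T cells, had 6.84, 6.54 and 7.02 CPM in PVASCs, 6.06, 6.09 and 5.70 CPM in Ab-ASCs and 1.37, 1.41 and 2.55 CPM in Sub-ASCs. It followed Lef1, with a log2 fold change from Sub-ASCs of 1.92 ± 0.18 in PVASCs and 1.73 ± 0.19 in Ab-ASCs (adjusted p = 1.06e-06 and 4.18e-06). Nkd2, a feedback inhibitor that binds Dvl proteins, had 71.3, 64.7 and 62.6 CPM in Ab-ASCs, 43.7, 42.9 and 43.0 CPM in PVASCs and 14.0, 18.4 and 14.8 CPM in Sub-ASCs. No groups overlapped, and Nkd2 was higher by a log2 fold change of 2.07 ± 0.09 in Ab-ASCs and 1.45 ± 0.09 in PVASCs against Sub-ASCs (adjusted p = 7.27e-10 and 2.23e-08). Between PVASCs and Ab-ASCs its log2 fold change was -0.61 ± 0.09 (adjusted p = 8.81e-05). Nkd1, its paralog, ranged from 4.61 to 8.50 CPM. The lower levels of Nkd1 in PVASCs were called against Sub-ASCs (adjusted p = 0.0168) and Ab-ASCs (adjusted p = 0.0395). The first call was lost without Sub-ASC or PVASC replicate 3 (0.0908 and 0.0904), and the second without Ab-ASC replicate 1 or PVASC replicate 2 or 3 (0.0811 to 0.152). The second was also lost with the replicate block (0.0512), RLE scaling (0.0509), DESeq2 (0.052), the filter of 10 reads in every library (0.061) and the fit of 2 groups (0.0865).

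The promoter windows of Axin2 and Lef1 are shown because these genes of the pathway moved in opposite directions against Sub-ASCs. They are the 250 bases upstream of the RefSeq start sites in GRCm38.p6, chr11:108920099-108920348 and chr3:131110073-131110322, both on the plus strand, 5′ to 3′ with GC boxes in capitals.
Axin2: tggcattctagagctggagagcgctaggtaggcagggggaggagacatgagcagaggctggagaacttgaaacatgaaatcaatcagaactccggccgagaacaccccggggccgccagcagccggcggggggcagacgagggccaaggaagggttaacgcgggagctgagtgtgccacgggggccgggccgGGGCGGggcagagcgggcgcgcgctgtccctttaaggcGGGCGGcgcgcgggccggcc
Lef1: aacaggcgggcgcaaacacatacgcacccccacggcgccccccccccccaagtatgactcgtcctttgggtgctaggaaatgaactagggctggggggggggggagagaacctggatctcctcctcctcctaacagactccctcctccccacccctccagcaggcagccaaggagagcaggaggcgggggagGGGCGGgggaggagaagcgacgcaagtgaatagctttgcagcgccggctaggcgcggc
Axin2 held 2 GC boxes and Lef1 held 1, and neither held any of the other 3 motifs on either strand. The RefSeq start of Lef1 lies 148 bases from the gene start listed with the counts.

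**Figure D4:**
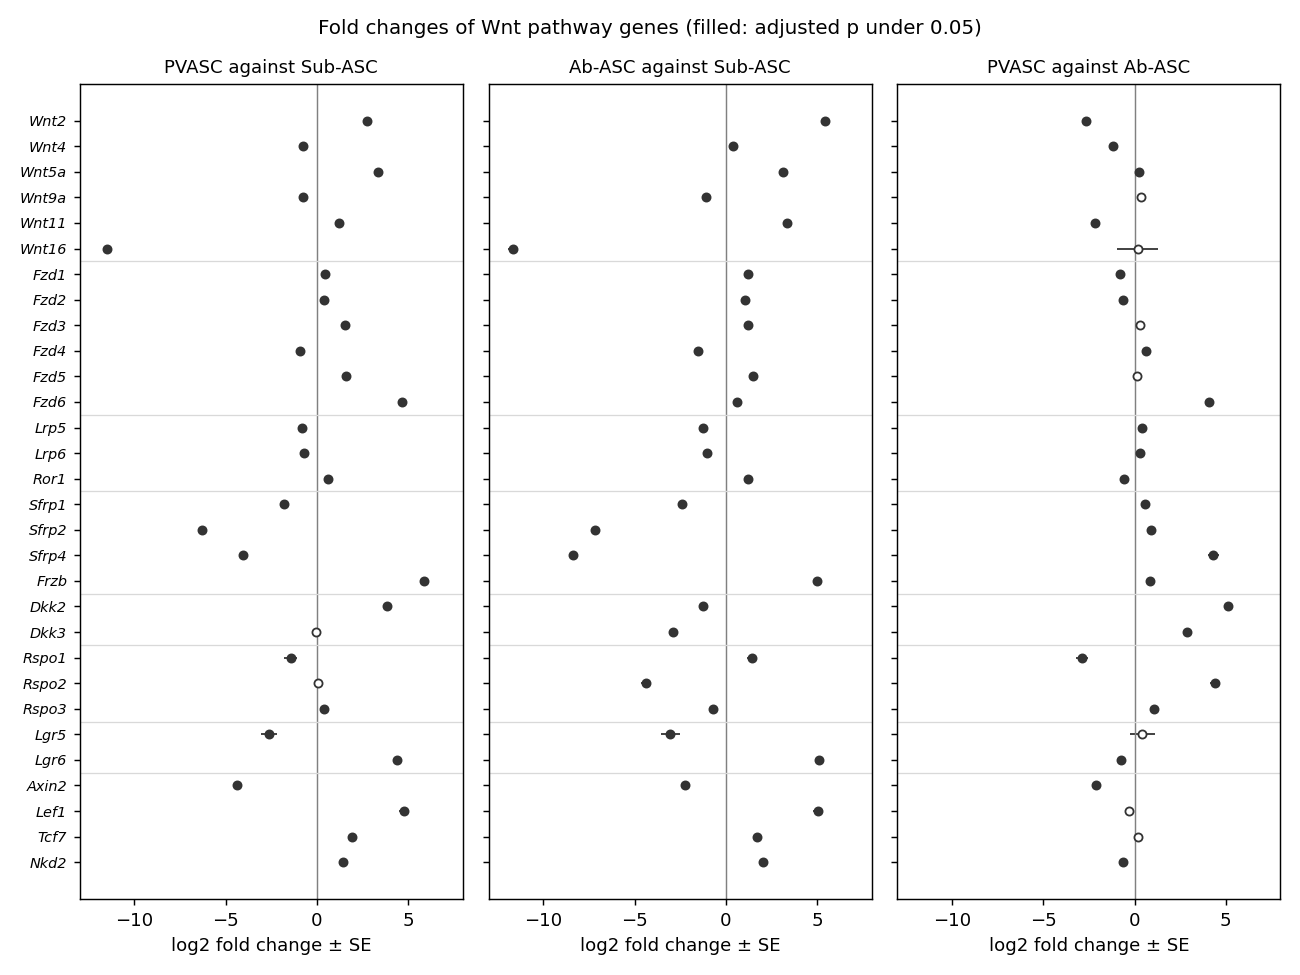
Log2 fold change ± SE from edgeR of the 30 Wnt pathway genes with a mean of at least 1 CPM in some group and a called change of at least 1 on the log2 scale, for each pair of depots, with filled circles for an adjusted p under 0.05. Wnt16 and the Sfrp genes lie left of 0 and Frzb, Lgr6 and Lef1 right of 0 in both comparisons against Sub-ASC, while the changes between PVASC and Ab-ASC reach 5.10 for Dkk2.

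Several markers moved with the genes that set Sub-ASCs apart. All 10 markers of proliferating cells were lower in Sub-ASCs than in both other groups, with sums of 134 to 139 CPM in Sub-ASCs, 843 to 855 CPM in PVASCs and 888 to 945 CPM in Ab-ASCs. The smooth muscle and pericyte list summed to 112 to 119 CPM in Sub-ASCs, far below both other groups, and Acta2 alone averaged 52.7 CPM in Sub-ASCs, 2503 CPM in PVASCs and 4433 CPM in Ab-ASCs. All 8 were higher in PVASCs than in Sub-ASCs, but in Ab-ASCs 5 were higher and 2 (Notch3 and Rgs5) lower than in Sub-ASCs, and 4 (Acta2, Cnn1, Myh11 and Tagln) were lower in PVASCs than in Ab-ASCs. The 6 adipocyte markers summed to 156 to 171 CPM in Sub-ASCs, of which Fabp4 averaged 129 CPM, against 48.9 to 51.2 CPM in PVASCs and 37.7 to 40.9 CPM in Ab-ASCs. The 4 tested (Fabp4, Plin1, Lipe and Adipoq) were lower in both other groups than in Sub-ASCs, Cidec was too low to test, and Lep was at 0 in every library. Leukocyte markers were found in all groups (259 to 262 CPM in Sub-ASCs, 301 to 310.3 CPM in PVASCs and 313 to 408 CPM in Ab-ASCs, all 7 genes at 1 CPM or more). That sum was carried by Lyz2, at means of 162, 249 and 271 CPM, and it and Csf1r were higher in both other groups than in Sub-ASCs, whereas the other 5 (Ptprc, Adgre1, Cd14, Cd68 and Itgam) were lower. The mesothelial list was lowest in sum in Sub-ASCs as well (3.54 to 4.04 CPM), with 52.7 to 54.0 CPM in PVASCs and 133 to 143 CPM in Ab-ASCs. That was the order of Lgr6 and Lef1 but not of Frzb. The part of these cells and states in the levels of Wnt16, the Sfrp genes, Axin2, Frzb, Lgr6 and Lef1 was not tested.

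Other genes of the pathway were counted from 4 lists, to be read beside the 70.4% and 75.3% of all genes called in PVASCs and Ab-ASCs against Sub-ASCs. Of 13 tested genes for Wnt secretion and membrane regulation, 7 were higher and 6 lower in PVASCs than in Sub-ASCs, and 7 were higher and 5 lower in Ab-ASCs than in Sub-ASCs (100% and 92.3% called). Of 26 tested genes of the cytoplasmic and nuclear core, 5 were higher and 12 lower in PVASCs, and 9 higher and 10 lower in Ab-ASCs (65.4% and 73.1% called), with a median absolute log2 fold change of 0.35 and 0.45, beside 0.59 and 0.75 over all genes tested. Ctnnb1, which encodes β-catenin itself and was picked out after its values were seen, had means of 658, 711 and 692 CPM in Sub-ASCs, Ab-ASCs and PVASCs, and passed the test between Ab-ASCs and Sub-ASCs alone (log2 fold change 0.11 ± 0.04, adjusted p = 0.0375). Of 12 genes of planar cell polarity, 4 were higher and 7 lower in PVASCs, and 5 higher and 5 lower in Ab-ASCs (91.7% and 83.3% called). Of 12 tested other target genes, 7 were higher and 5 lower in both groups against Sub-ASCs (100% called).

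The 5 genes of these lists with the largest changes against Sub-ASCs were Wisp2, Sp5, Ccnd1, Wisp1 and Apcdd1. Wisp2, a secreted protein of fat precursor cells, averaged 268 ± 10.6 CPM (SD of 3 libraries) in Sub-ASCs, 35.0 ± 1.49 CPM in PVASCs and 1.63 ± 0.171 CPM in Ab-ASCs, with a log2 fold change of -2.93 in PVASCs and -7.35 in Ab-ASCs (adjusted p = 5.94e-13 and 1.08e-14). Apcdd1, a membrane inhibitor of Wnt signals, was lower in both groups as well, with log2 fold changes of -3.10 and -2.29 (adjusted p = 2.56e-11 and 3.34e-10). Sp5, a transcription factor induced by β-catenin, averaged 7.75 CPM in PVASCs, 0.482 CPM in Ab-ASCs and 0.154 CPM in Sub-ASCs, and so was high where Axin2 was lowest (PVASCs against Sub-ASCs, log2 fold change 5.56, adjusted p = 1.39e-08). Ccnd1, the cyclin of the G1 phase, averaged 524 CPM in PVASCs, 189 CPM in Ab-ASCs and 32.0 CPM in Sub-ASCs, and Wisp1 averaged 96.6, 66.1 and 7.45 CPM. Both were called in both comparisons against Sub-ASCs, with log2 fold changes of 2.56 to 4.03 and every adjusted p at most 3.8e-12.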

How the data were processed

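The authors sequenced messenger RNA of mouse ASCs in 9 libraries and deposited raw read counts per gene with gene lengths and positions. The submitters' processing notes name CASAVA 1.8, Bowtie 0.12.2 and featureCounts 1.5.0-p3, with the mouse builds mm8 and mm10. The role of each build and the strand setting of the counting are not given in the sources used here. Of the 55 genes, 54 had the positions of GENCODE M21 (GRCm38).

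The counts of all 9 libraries were filtered with filterByExpr, scaled by TMM and fitted with edgeR 4.0.16 (quasi-likelihood test, no covariates, Benjamini-Hochberg adjustment over all genes tested) in R 4.3.3. SE is the absolute log2 fold change divided by the square root of F. FPKM was computed here from library totals and the listed lengths. Ratios of genes with 10 or fewer reads in a group were scaled by library size with exact 95% intervals, and like the limit of 3 reads per library these cover counting error only. The fitting code was tested on simulated data. Alternatives were DESeq2 1.42.0, RLE scaling, other filters, a fold cutoff, a replicate block, fits of 2 groups and leaving out each library. Figures were drawn with matplotlib 3.10.9.

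The genes and lists were chosen with earlier results of these data known. Library values are given for genes that were tested, averaged at least 1 CPM in some group and had a called log2 fold change of at least 1 in some comparison, and the others are given by range and count. From the pathway lists, the 5 genes with the largest changes against Sub-ASCs are named. The promoters of Wnt16 and Wnt2 were added after their values were seen. Protein sequences were not used here.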

Additional observations from a re-analysis of the deposited data

How the results depend on the processing

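Of 103 called differences of single genes, 5 lost the call under some alternative, but none did of the 66 that changed by 1 or more on the log2 scale, in the alternatives where they were tested. The fold cutoff is not counted here, and 10 reads in every library left Wnt16, Sfrp4, Lef1 and Rspo2, among others, untested. Of 23 differences not called, 7 gained the call somewhere (Wnt2b, Wnt9a, Fzd3 and Tcf7 for PVASCs against Ab-ASCs, and Wnt7a, Fzd9 and Ror2 for PVASCs against Sub-ASCs). Requiring that change as well left 21 genes for PVASCs against Sub-ASCs and 13 for PVASCs against Ab-ASCs. Then 7 genes of Sub-ASCs, 5 of Ab-ASCs and 2 of PVASCs stood above both other depots. Leaving out 1 library gave 33 to 36 genes between PVASCs and Sub-ASCs, 28 to 31 between PVASCs and Ab-ASCs and 39 to 40 between Ab-ASCs and Sub-ASCs. It gave 5 to 8, 11 and 11 to 12 genes higher than in both others, and 33 to 34, 32 and 33 to 34 genes at 1 CPM or more, in PVASCs, Ab-ASCs and Sub-ASCs. The PVASC count was 5 without Sub-ASC replicate 2, Ab-ASC replicate 3 or PVASC replicate 2 or 3, and 8 without Ab-ASC replicate 2.

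The replicate block gave 33, 28 and 40 genes in the 3 comparisons. The correlation of same-numbered libraries' deviations ran from -0.0514 to 0.095, so the numbers were not taken to pair the samples. DESeq2 gave 33, 28 and 40 genes, and 10 reads in every library gave 27, 25 and 29, since fewer genes were then tested.

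The sign turned, or for Wnt7b the value went to 0, in 14 cases, all on leaving out 1 library and all for differences that were not called. The ranges of log2 fold change were -2.39 to 0 for Wnt7b, -0.0722 to 0.0263 for Dkk3 (both PVASC against Sub-ASC), -1.31 to 3.61 for Wnt16, -0.19 to 0.63 for Fzd10, -0.83 to 0.36 for Wif1, -0.15 to 0.78 for Lgr5 (PVASC against Ab-ASC) and -0.129 to 0.077 for Nkd1 (Ab-ASC against Sub-ASC). The cause was not tested. Depth limits the 13 untested genes, with at most 12 reads in a library.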

Other observations

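Several Wnt ligand genes are close neighbours in the genome. Wnt6 lies 6.2 kb from Wnt10a, Wnt10b 11.7 kb from Wnt1, Wnt3a 16.2 kb from Wnt9a and Wnt9b 24.3 kb from Wnt3. Of these 8 ligands, Wnt9a alone had enough reads for testing. Wnt10a and Wnt10b were found at low levels in every PVASC library, with 9, 11 and 12 reads of Wnt10a and 6, 6 and 5 reads of Wnt10b. Wnt10b also had 1, 3 and 1 reads in Sub-ASC libraries and 0, 1 and 1 in Ab-ASC libraries. Neither gene was tested.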
